A study of Drosophila melanogaster with 6 samples.

Results

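The translation factors described here are the 39 rows, of 16666 gene rows in the count table, whose symbols begin with eIF, eEF, Ef1, EF2 or eRF. They comprise 32 rows named as initiation factors, 6 elongation factors of the eEF1 and eEF2 groups and 1 release factor. RNA came from astrocytes that were sorted out of Drosophila melanogaster brains, with 2 libraries from the third larval instar (L3), before neuronal remodelling, and 4 from adults, after it. All flies of both groups carried UAS-mCD8::GFP, Alrm-Gal4 and also UAS-RedStinger and were reared at 25 °C without further treatment. Alrm-Gal4, a driver named for the astrocyte gene alrm, turned on the nuclear red reporter by which cells were sorted, so each library is a pool of 1000 cells in which the driver was active. The labels give no adult age and do not say how many brains were pooled or whether the pools came from separate animals, so p-values measure the spread between these pools. Digestion of the brains in collagenase and dispase, at 29 °C, lasted 15 min at L3 and 30 min in adults, so digestion time and stage cannot be told apart.

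Protein synthesis starts when eIF2, bound to GTP, brings the initiator tRNA to the small ribosomal subunit, with eIF3, eIF1A and eIF5 at hand, while the eIF4 factors bind the mRNA cap and unwind the leader. eIF2B reloads eIF2 with GTP, and phosphorylation of the alpha subunit of eIF2 blocks this step under stress. During elongation eEF1 alpha carries aminoacyl-tRNAs to the ribosome, the beta, gamma and delta subunits of eEF1 recharge it, eEF2 moves the ribosome along the mRNA, and eRF1 ends synthesis at stop codons. In mammals, mRNAs of ribosomal proteins and of several elongation factors share a terminal oligopyrimidine motif and are controlled together.

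The libraries held 745129 to 2641671 counts, and 8542 to 11988 genes had a count, with the L3 libraries the deeper ones. Levels are given as CPM, the count of a row scaled to its library's total. The libraries were made from transcript 3′ ends, so CPM was not divided by length, and the order of levels between genes is only that of their rows. Of 5 astrocyte markers, 4 were higher in adult and 0 lower, with summed levels of 3249 and 5132 CPM in L3 and between 8819 and 13509 in adult, and alrm itself stood at 861 to 1628 CPM. Neuroblast markers summed to 17.2 and 44.7 CPM in L3 and between 0 and 6.21 in adult, where ase, wor and mira were at 0. Neuron markers summed to 79.9 and 151 CPM in L3 and between 194 and 334 in adult, with 1 of 6 tested higher. The hemocyte list rose through Hml, from 27.6 and 43.2 CPM summed to between 847 and 1549.6, while NimC1 and He stayed at most 6.21 CPM in every library. Cortex glia markers summed to 182 and 289 CPM in L3 and between 326 and 422 in adult, with 1 of 3 higher, and ensheathing glia markers to 44.7 and 101 CPM and between 107 and 184, with 1 of 2 higher. Of the fat body markers 1 was higher and 1 lower, with sums of 21.2 and 39.5 CPM in L3 and between 17.1 and 55 in adult, and Fbp1 was at 0 in every library. Surface glia markers summed to 51.5 and 60.6 CPM in L3 and between 69.0 and 119 in adult, muscle markers to 3.41 and 9.88 CPM and between 7.67 and 50.9. The pan-glial markers repo and nrv2 were both higher in adult. The part of these other cell types in the factor levels was not tested. In such pools, fewer cells of a type and less RNA per cell cannot be told apart.

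Many factor rows carried the counts of a neighbouring gene. Of the 35 factors with at least 30 counts, 21 (60.0%) differed from a row at most 10 places away by under 5% of the summed counts, against 58.5% of all rows with that many counts. For these, which of the genes the RNA came from cannot be told, and the partner is named beside the value. Another 10 had only a looser likeness to a neighbour, under 30% of the summed counts. The remaining 4 were eIF2B-beta, eIF3-S8, eIF-4E and Ef1beta, and Ef1beta had the counts of rows far away.

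The translation factor rows took a smaller share of the counts in adult astrocytes than in larval ones, and the elongation factor rows made up most of the difference. The 39 rows together held 1.11% and 1.05% of the counts of the L3 libraries and 0.533%, 0.480%, 0.610% and 0.526% of those of adult libraries 1 to 4. The eEF1 and eEF2 rows summed to 7672 and 6357 CPM in L3 and between 2002 and 3248 in adult, and the initiation factor rows to 3409 and 4092 CPM in L3 and between 2629.9 and 2829 in adult. In each case every adult library lay below both L3 libraries. Within a library, the elongation factors supplied 68.9% (95% Wilson interval 68.4% to 69.5%) and 60.4% (59.8% to 61.1%) of the factor counts in L3. In adult libraries 1 to 4 they supplied 48.3% (47.0% to 49.5%), 41.7% (40.1% to 43.3%), 53.3% (52.0% to 54.6%) and 49.2% (48.0% to 50.4%). These intervals cover counting error only.

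**Figure D1:**
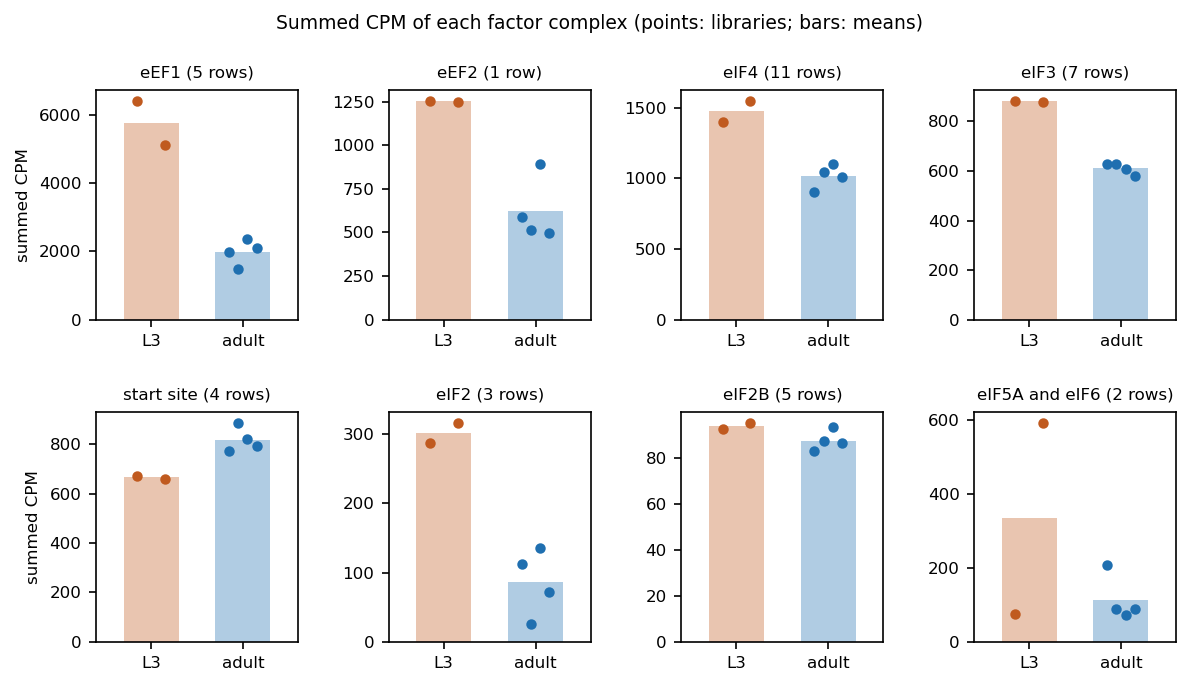
Summed CPM of the rows of 8 factor groups in the 2 L3 and 4 adult libraries; points are libraries and bars are means. The eEF1 rows sum to 6415 and 5107 CPM in L3 and between 1486 and 2357 in adult, while the eIF2B rows stay between 82.7 and 95.2 CPM in all 6 libraries.

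Stage was tested with edgeR's quasi-likelihood test over 9082 genes, with Benjamini-Hochberg adjustment over all of them and a threshold of 0.05. Fold changes are adult minus L3 on the log2 scale, with the standard error (SE). Of the 35 factors that passed the filter on low counts, 9 were lower in adult (25.7%), where 13.1% of all tested genes were lower. None was higher, where 9.65% of all tested genes were. At an unadjusted p under 0.05, 2 factors were higher, as were 1337 of all 9082 genes. DESeq2 and limma-voom also called 0 factors higher, where they called 767 and 698 of all genes higher. The 9 were Ef1alpha48D, Ef1beta, Ef1gamma, eEF1delta, EF2, eIF-2beta, eIF-2gamma, eIF3-S10 and eIF-5A. DESeq2 called 6 of the 9 and edgeR's earlier quasi-likelihood method 5. Of the 9 rows, 7 shared counts with a neighbour, EF2 had a looser likeness and Ef1beta had the counts of distant rows. Adult libraries all lay below both L3 libraries for 15 factors (42.9%), against 22.9% of all tested genes, and all above for 1 factor, eIF2D, against 14.8%. The median log2 fold change of the tested factors was -0.56, and that of all tested genes -0.14. The factors that were not tested were eIF3gb, with 1 count in all, eIF4E-3, with 7 counts in L3 library 1, and eIF4E-4 and eIF4E-7, with 0 counts. A count of 0 allows up to 0.657 CPM over the L3 libraries and 0.724 CPM over the adult ones, a floor of 3 counts.

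**Figure D2:**
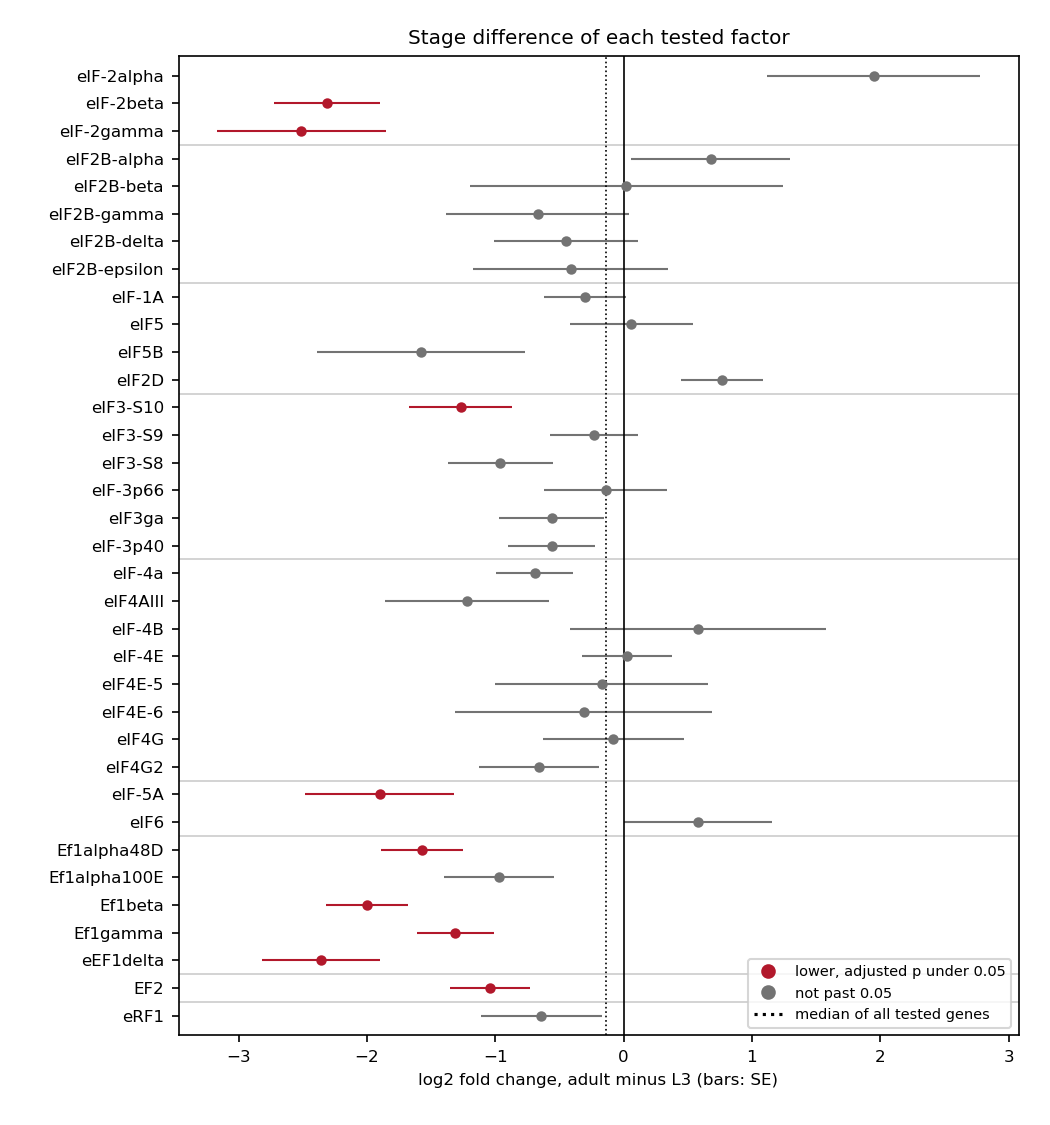
Log2 fold change (adult minus L3) of the 35 tested factors, grouped by complex, with bars of 1 SE; red marks the 9 factors lower at an adjusted p under 0.05 and the dotted line the median of all tested genes, -0.14. Of the 6 elongation factor rows 5 are red, where 13.1% of all tested genes were lower. The values of the 35 factors range from -2.51 for eIF-2gamma to 1.95 for eIF-2alpha.

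Ef1alpha48D (current name eEF1alpha1), the main carrier of aminoacyl-tRNA, had the highest level of all factor rows. It stood at 4163 and 3092 CPM in L3 and at 1352, 804, 1590.2 and 1339 CPM in adult libraries 1 to 4. No adult library reached the L3 range, and adult library 2 was the lowest. The mean fell from 3628 ± 757 CPM (SD, n = 2) to 1271 ± 332 (SD, n = 4), 2.96-fold in the fit (log2 fold change -1.57, SE 0.32, edgeR adjusted p = 0.00124). Its counts differed by 0.069% from those of MCPH1, 2 rows away. The call was kept under all 20 other settings, with log2 fold changes of -1.88 to -1.13.

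Its exchange factor subunits fell as well. Ef1beta (eEF1beta), which reloads eEF1 alpha with GTP, was at 1133 and 869 CPM in L3 and 203, 246, 351 and 241 CPM in adult. The stages were far apart, and the fall was 4.01-fold (log2 fold change -2.0, SE 0.32, edgeR adjusted p = 8.66e-05), again under all 20 settings. Lcp3 and Lcp4, larval cuticle protein genes 1357 and 1356 rows away, had the same counts but for 0.236% of the sum, so the counts may belong to any of the 3 rows. eEF1delta, a second exchange subunit, was at 167 and 149 CPM in L3 and 49.3, 20.1, 7.67 and 41.2 CPM in adult (log2 fold change -2.36, SE 0.46, edgeR adjusted p = 0.000667). It shared its counts with mthl15, and adult library 3, with 7 counts, was lowest.

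Ef1gamma (eEF1gamma), the scaffold of the exchange complex, was at 852 and 836 CPM in L3 and 341, 289.9, 364 and 398 CPM in adult. Replicates lay close together within each stage. The fall was 2.48-fold (log2 fold change -1.31, SE 0.30, edgeR adjusted p = 0.00273) and missed the threshold without L3 library 1 (-1.11, adjusted p = 0.0575), where the spread of the single L3 library left is taken from the adult ones. Cisd2, the next row, had the same counts. Set against Ef1alpha48D of the same library, Ef1gamma had 20.5% and 27.0% of its counts in L3 and 22.9% to 36.1% in adult, and Ef1beta 27.2% and 28.1% in L3 and 15.0% to 30.6% in adult. Both ranges overlap between stages, for Ef1beta only through adult library 2, at 30.6%. In adult libraries 1, 3 and 4 the Ef1beta ratio was 15.0%, 22.1% and 18.0%, below L3. For eEF1delta the ratio was 4.0% and 4.81% in L3 and 0.482% to 3.64% in adult, so here every adult library lay below L3.

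Ef1alpha100E (eEF1alpha2), the second eEF1 alpha gene, was at 100.3 and 160.2 CPM in L3 and 36.7, 126, 44.9 and 69.9 CPM in adult. The stages overlapped because of adult library 2, and the difference did not pass (log2 fold change -0.97, SE 0.43, edgeR adjusted p = 0.110). Without adult library 2 it did (-1.32, adjusted p = 0.0401). As a share of both eEF1 alpha rows it made up 2.35% (Wilson interval 2.09% to 2.65%) and 4.92% (4.41% to 5.49%) in L3. In adult libraries 1 to 4 the share was 2.65%, 13.6%, 2.75% and 4.96%, and only adult library 2, at 11.2% to 16.3%, had an interval outside the span of the L3 intervals. How reads were divided between the rows of these paralogues was not tested and cannot be seen from counts per gene.

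EF2 (eEF2), the translocase and the only gene of its group, was at 1256 and 1250.1 CPM in L3 and 591, 517, 891 and 499 CPM in adult. The L3 libraries were almost equal, and adult library 3 was the nearest to them. The fall was 2.05-fold (log2 fold change -1.04, SE 0.31, edgeR adjusted p = 0.0200). This call did not hold without L3 library 1 (-0.86, adjusted p = 0.170), adult library 1 (-0.99, 0.0683), adult library 2 (-0.94, 0.0758) or adult library 4 (-0.93, 0.0786), and with the earlier quasi-likelihood method (-1.04, 0.0537). Df31 had a looser likeness to it, and RpL31, a ribosomal protein gene 741 rows away that was picked after its values were seen, differed from it by 3.99% of the summed counts. Per Ef1alpha48D of the same library, EF2 had 30.2% and 40.4% of the counts in L3 and 43.7%, 64.3%, 56.0% and 37.3% in adult, so the stages overlapped through adult library 4.

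**Figure D3:**
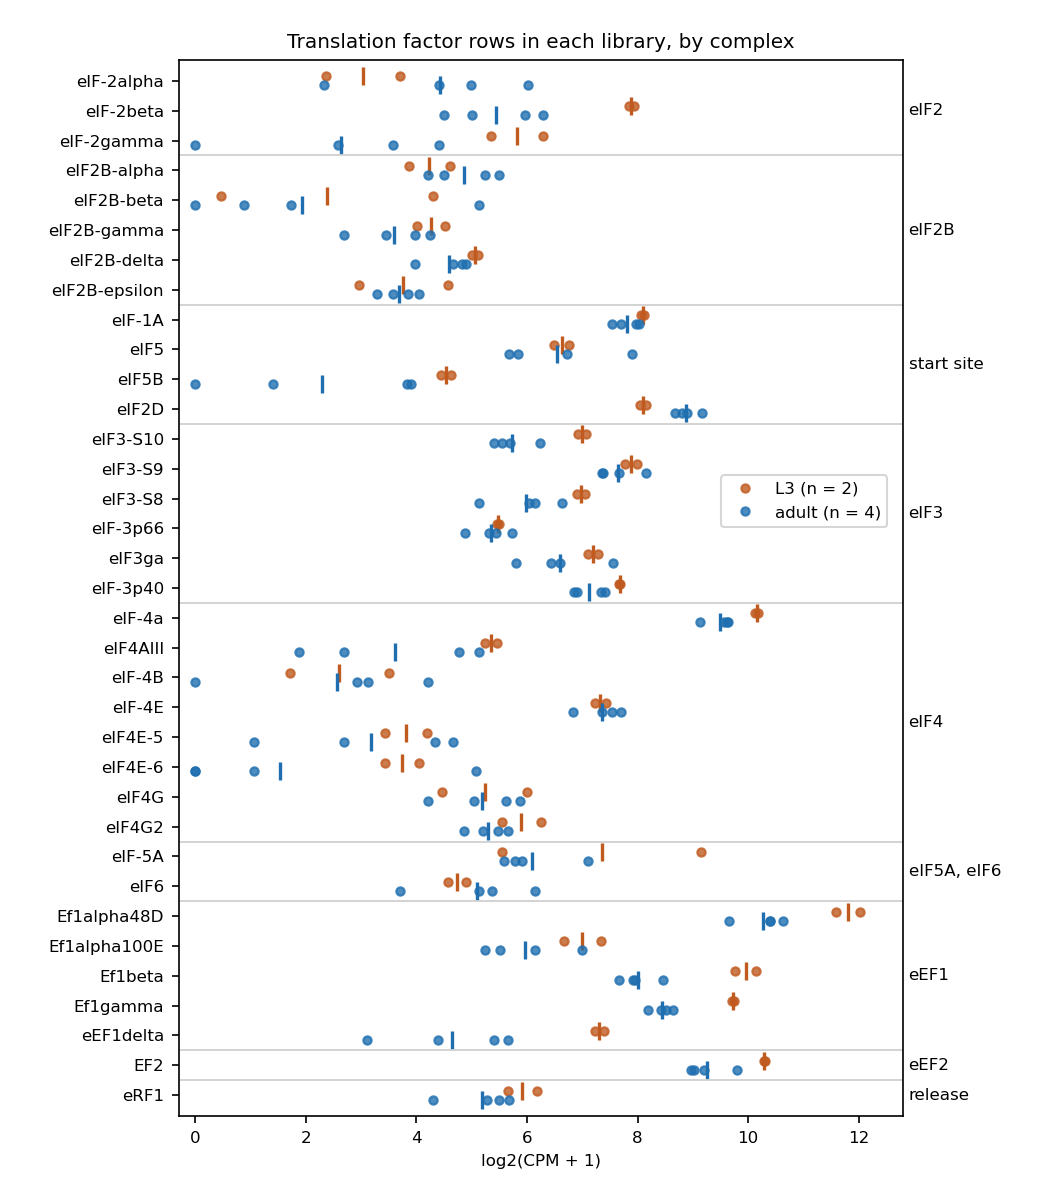
Level of each of the 35 tested factors in each library, as log2(CPM + 1), grouped by complex; points are libraries and vertical ticks are the mean of the plotted values per stage. Ef1alpha48D lies furthest right in both stages, and the 2 L3 points of eIF-5A, at 45.8 and 569 CPM, lie on either side of its adult points.

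Of the 3 subunit rows of eIF2, the factor that brings the initiator tRNA, 2 were lower and 1 was not called, where 13.1% of all tested genes were lower. eIF-2beta was at 244 and 228 CPM in L3 and 76.8, 21.5, 61.4 and 31.1 CPM in adult. All adult libraries were far below L3, a fall of 4.96-fold (log2 fold change -2.31, SE 0.41, edgeR adjusted p = 0.000284). Its counts were those of the row before it, ver, a telomere capping gene. eIF-2gamma, the GTP-binding subunit, fell from 39.7 and 77.5 CPM to 5.01, 0, 11 and 20.2 CPM (log2 fold change -2.51, SE 0.66, edgeR adjusted p = 0.00808). It shared counts with CG42404, and the call did not hold without L3 library 2 (-2.15, adjusted p = 0.0793), with DESeq2 (-2.65, 0.0753) and with the earlier quasi-likelihood method (-2.64, 0.123).

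eIF-2alpha, the subunit phosphorylated under stress, had few counts, from 3 to 58 a library. Its levels were 4.16 and 12 CPM in L3 and 30.9, 4.03, 63.6 and 20.2 CPM in adult. The stages overlapped only through adult library 2, and the difference was not past the threshold (log2 fold change 1.95, SE 0.83, edgeR adjusted p = 0.0949) unless that library was left out (2.25, adjusted p = 0.0486). The 3 rows summed to 288 and 317 CPM in L3 and to 25.5 to 136 CPM in adult.

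eIF2B, the exchange factor of eIF2, showed no call among its 5 subunit rows, against 22.7% of all tested genes called. Their edgeR adjusted p-values were 0.483 to 0.993. Their log2 fold changes ran from -0.67 for eIF2B-gamma to 0.68 for eIF2B-alpha, and the summed level was 92.4 and 95.2 CPM in L3 and between 82.7 and 93.2 in adult. eIF2B-delta, the highest of them in L3, was at 33.7 and 31.2 CPM there and 24.2, 14.8, 27.4 and 28.7 CPM in adult, with the counts of CG3530. eIF2B-alpha, with the counts of CG42558, was at 13.6 and 23.4 CPM in L3 and 36.7, 44.3, 17.5 and 21.7 CPM in adult. eIF2B-gamma and eIF2B-epsilon, the latter the catalytic subunit, stayed between 5.48 and 22.7 CPM in every library and shared counts with CG8192 and mip130. eIF2B-beta differed between libraries of 1 stage more than between stages, at 0.379 and 18.7 CPM in L3 and 0.835, 0, 34.0 and 2.33 CPM in adult. Its log2 fold change was 0.02 with an SE of 1.22 (edgeR adjusted p = 0.993), and its counts ranged from 1 in L3 library 1, the deepest library, to 36 in L3 library 2 and from 0 to 31 in adult.

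The 4 rows of start site selection and subunit joining, counted with eIF2D, were also without a call, against 22.7% of all tested genes called. eIF-1A, which helps the scanning ribosome find the start codon, was at 277 and 268 CPM in L3 and 261, 207, 184 and 250.0 CPM in adult. The highest adult value was close to L3, and the log2 fold change was -0.30 (SE 0.32, edgeR adjusted p = 0.549). Its counts were those of CG14312. eIF5, which triggers GTP hydrolysis by eIF2, shared counts with ND-20 and CG9170 and ranged from 50.4 to 238 CPM in adult around L3 values of 108 and 89.4 (edgeR adjusted p = 0.954). eIF5B, the GTPase of subunit joining, was at 23.8 and 20.8 CPM in L3 and 1.67, 0, 13.2 and 14 CPM in adult (log2 fold change -1.58, SE 0.81, edgeR adjusted p = 0.169).

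eIF2D was the only factor whose adult libraries all lay above L3. This factor, which in mammals can deliver tRNA without eIF2 and acts in ribosome recycling, was at 262 and 282 CPM in L3 and 406, 444, 574 and 474 CPM in adult. The difference did not pass (log2 fold change 0.77, SE 0.32, edgeR adjusted p = 0.0859). Its counts were the same in every library as those of the row before it, Pglym78, which encodes a phosphoglycerate mutase of glycolysis. They differed by 1.48% from those of stumps, 2029 rows away, a pair picked after its values were seen. The values could therefore belong to another gene.

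eIF3, the large complex that bridges the small subunit and the mRNA, had 7 rows, of which 6 were tested. All 6 had a log2 fold change below 0, from -1.27 to -0.14, as had 54.0% of all tested genes. Of the 6, 1 was called lower (16.7%), against 13.1% of all tested genes. eIF3-S10 (eIF3a), a core scaffold subunit, was at 133 and 121 CPM in L3 and 45.9, 51.0, 41.6 and 74.5 CPM in adult. All adult libraries were below L3 (log2 fold change -1.27, SE 0.40, edgeR adjusted p = 0.0247), and srl, 2 rows away, had the same counts. The call did not hold without L3 library 1 (-1.01, adjusted p = 0.275), adult library 1 (-1.18, 0.0708), adult library 2 (-1.23, 0.0527) or adult library 3 (-1.12, 0.0514), with DESeq2 (-1.28, 0.0602), with libraries thinned to 1 depth (-1.24, 0.0534) and with the earlier quasi-likelihood method (-1.29, 0.0650).

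The other core subunits were nearer to their L3 levels. eIF3-S9 (eIF3b), the highest row of the complex, was at 218 and 254 CPM in L3 and 282, 165, 203 and 164 CPM in adult (edgeR adjusted p = 0.686). eIF3-S8 (eIF3c), a row with counts of its own, was at 132 and 119 CPM in L3 and 98.5, 69.8, 64.7 and 34.2 CPM in adult. Here the stages did not overlap, but the difference was not past the threshold (log2 fold change -0.96, SE 0.41, edgeR adjusted p = 0.0980). eIF-3p40 (eIF3h), with the counts of CG9121 and CG31650, was at 203 and 204 CPM in L3 and 119, 115, 169.9 and 160.0 CPM in adult (edgeR adjusted p = 0.256). eIF3ga (eIF3g1), with the counts of Bzd and Klp3A, was at 154 and 136 CPM in L3 and 55.1, 187, 85.5 and 95.5 CPM in adult, so adult library 2 lay above L3 and the other adult libraries below. eIF-3p66 (eIF3d1) had 43.9 and 43.2 CPM in L3 and between 28.4 and 52.0 in adult. Its paralogue row eIF3gb (eIF3g2) of eIF3ga had 1 count.

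Among the eIF4 factors, which bind and unwind the capped mRNA, 0 of 8 tested rows were called, against 22.7% of all tested genes. At an unadjusted p under 0.05, 1 of the 8 was lower, as were 1805 of all 9082 genes. eIF-4a (eIF4A), the RNA helicase, was the highest initiation factor row, at 1116 and 1161 CPM in L3 and 560.2, 752, 797 and 787 CPM in adult. Every adult library was below L3, with a log2 fold change of -0.69 (SE 0.30, edgeR adjusted p = 0.102), and no other setting called it, with adjusted p-values of 0.0577 to 0.410. The profilin gene chic, the row before it, differed from it by 16.6% of the summed counts, and CG3558, 461 rows away and picked after its values were seen, by 0.872%. eIF4AIII, a helicase of the exon junction complex, shared counts with Coq2 and was at 43.2 and 36.9 CPM in L3 and 34.2, 2.68, 26.3 and 5.44 CPM in adult (edgeR adjusted p = 0.185).

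eIF-4E (eIF4E1), the main cap-binding protein, had counts of its own and similar levels in both stages. It was at 149 and 171 CPM in L3 and 186, 162, 206 and 113 CPM in adult, with means of 159.7 ± 15.4 (SD, n = 2) and 167 ± 40.3 (SD, n = 4). The adult libraries lay on both sides of L3 (log2 fold change 0.03, SE 0.35, edgeR adjusted p = 0.968), and leaving out 1 library at a time gave -0.04 to 0.21. Of the counts of all 6 eIF4E rows, eIF-4E held 86.9% and 83.9% in L3 and 90.7%, 87.1%, 98.9% and 74.7% in adult. eIF4E-5, with the counts of pbl, and eIF4E-6, with those of beta4GalNAcTB, made up the rest apart from 7 counts of eIF4E-3, a paralogue known for its role in sperm formation.

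The scaffold eIF4G (eIF4G1) was at 21.2 and 62.9 CPM in L3 and 48.4, 57.7, 17.5 and 31.8 CPM in adult (edgeR adjusted p = 0.942). Its paralogue eIF4G2, which shared counts with CG33111 and is required in the male germline, was at 45.8 and 74.9 CPM in L3 and 35.9, 49.7, 43.8 and 28.0 CPM in adult (edgeR adjusted p = 0.347). Stages overlapped for both. eIF4G2 made up 68.4% and 54.3% of the pair's counts in L3 and 42.6%, 46.2%, 71.4% and 46.8% in adult, with Wilson intervals from 33.4% to 81.6% in adult. eIF-4B, a cofactor of the helicase, was at most 17.5 CPM in any library.

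eIF-5A, now named eEF5, carries the modified amino acid hypusine and eases peptide bond formation at difficult stretches. Its L3 libraries disagreed, at 45.8 and 569 CPM, and adult libraries stood at 136, 47.0, 59.2 and 54.4 CPM. L3 library 1 was below all adult libraries and L3 library 2 above them. The call as lower (log2 fold change -1.90, SE 0.58, edgeR adjusted p = 0.0214) rests on L3 library 2, without which the log2 fold change was 0.56 (adjusted p = 0.597). It was also lost without adult library 2 (-1.73, adjusted p = 0.0621) or adult library 4 (-1.74, 0.0735), with limma-voom (-1.20, 0.230), with DESeq2 (-1.93, 0.0514) and with the earlier quasi-likelihood method (-1.94, 0.0954). The noncoding RNA row CR44814 had the same counts. eIF6, which keeps free large subunits from joining, shared counts with Pym, bgcn and TBPH and was at 28.8 and 22.9 CPM in L3 and 70.1, 40.3, 12.1 and 34.2 CPM in adult (edgeR adjusted p = 0.530).

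eRF1, the release factor that reads all stop codons, was at 49.2 and 71.2 CPM in L3 and 50.1, 37.6, 18.6 and 44.3 CPM in adult. Adult library 1 fell within the L3 range (log2 fold change -0.64, SE 0.47, edgeR adjusted p = 0.363). Its partner GTPase eRF3, listed as Elf and outside the 39 rows, fell from 49.2 and 109 CPM to 19.2, 4.03, 2.19 and 22.5 CPM (log2 fold change -2.50, SE 0.60, edgeR adjusted p = 0.00402). That call did not hold without L3 library 2 (-2.03, adjusted p = 0.0683). Whether eRF1 and eRF3 differ in their change was not tested.

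**Figure D4:**
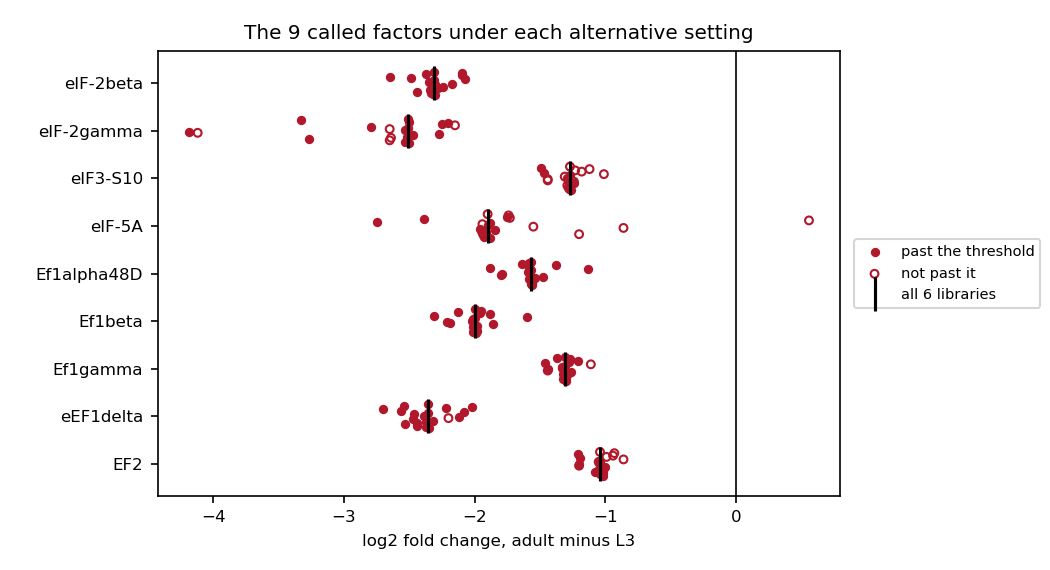
Log2 fold change (adult minus L3) of the 9 called factors under each of 20 other settings, in which filled points pass the threshold and open points do not, with a black tick for all 6 libraries. Ef1alpha48D and Ef1beta have no open point, and eIF-5A crosses 0, at 0.56, without L3 library 2.

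Other genes that act on these factors were taken from a list of 31, of which 30 had a row that could be matched. All 30 were tested; 7 were lower (23.3%) and 2 higher (6.67%), against 13.1% and 9.65% of all tested genes. The counts were 2 lower and 1 higher without L3 library 1, 4 lower and 3 higher without L3 library 2, 4 lower without adult library 2 or adult library 4, and 3 lower with the earlier quasi-likelihood method. Beside Elf the lower ones were Rack1, a ribosomal scaffold, Dph5 and nero, enzymes that modify eEF2 and eIF-5A, Pdcd4, whose mammalian form restrains eIF4A, pAbp, the poly(A)-binding protein, and PEK, a kinase of eIF-2alpha.

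Rack1, with the counts of CG7115, went from 1766 and 1239 CPM to 456, 619, 698 and 558 CPM (log2 fold change -1.43, SE 0.31, edgeR adjusted p = 0.00208). Dph5, with the counts of CSN6, went from 112 and 65.5 CPM to 6.58 to 34.2 CPM, and nero from 33.7 and 45.8 CPM to 0 to 16.7 CPM. All adult libraries were below L3 for these 3 genes, and also for Elf, PEK and Pdcd4. This held for 13 of the 30 listed genes (43.3%), against 22.9% of all tested genes. Calls were lost without L3 library 1 for Rack1 (log2 fold change -0.95, adjusted p = 0.107), Dph5 (-1.63, 0.162), nero (-2.13, 0.125), Pdcd4 (-1.12, 0.183) and PEK (-0.70, 0.297). With all libraries these were -1.43, -2.30, -2.08, -1.32 and -1.05, so for nero the difference without that library was as large. They were also lost for nero without L3 library 2 (-2.01, 0.112), adult library 2 (-1.77, 0.0725) or adult library 4 (-1.87, 0.102), for Pdcd4 without adult library 4 (-1.19, 0.0542), and for PEK without adult library 1 (-0.92, 0.0924) or adult library 2 (-0.92, 0.0870). PEK carried the counts of the ribosomal protein gene RpL35A, and Pdcd4 those of Grip91. pAbp was at 297 and 985 CPM in L3 and between 134 and 333 in adult, and its call did not hold without L3 library 2 (-0.31, adjusted p = 0.695), adult library 2 (-1.22, 0.0553), adult library 3 (-0.92, 0.0594) or adult library 4 (-1.25, 0.0578). Among the other tests, DESeq2 did not call pAbp (adjusted p = 0.0692) or nero (0.203), nor did limma-voom (0.0598 and 0.0557). The earlier quasi-likelihood method also missed pAbp (0.104), nero (0.262), PEK (0.0604) and Elf (0.0559).

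Lk6, the kinase that phosphorylates eIF4E, rose from 257 and 216 CPM to 903, 1039, 927 and 598 CPM. This was 3.53-fold (log2 fold change 1.82, SE 0.35, edgeR adjusted p = 0.000712), and CG6923, 2 rows away, had the same counts. mxt (Mextli), an eIF4E-binding protein of flies that promotes translation, rose from 32.6 and 75.9 CPM to 157, 178, 168 and 109 CPM (log2 fold change 1.52, SE 0.42, edgeR adjusted p = 0.0118), with nearly the counts of CG12194. Its call did not hold without L3 library 1 (1.14, adjusted p = 0.208). Thor, the 4E-BP repressor of eIF4E, was at 10.6 and 18.7 CPM in L3 and 0, 20.1, 0 and 5.44 CPM in adult (edgeR adjusted p = 0.354). The eIF3 subunits on the list of other genes, Int6 (eIF3e), Trip1 (eIF3i) and Adam (eIF3j), had log2 fold changes of -0.36, -0.55 and -1.06. Their edgeR adjusted p-values were 0.589, 0.267 and 0.0873.

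Ribosomal protein genes, the other main part of the translation machinery, were counted beside the factors, of which 25.7% were lower. Of 85 tested cytoplasmic ribosomal protein rows, 52 were lower (61.2%) and 1 higher, with a median log2 fold change of -1.08. Of 71 tested mitochondrial ones, 12 were lower (16.9%) and 1 higher, with a median of -0.75. Leaving out L3 library 1 moved these medians to -0.73 and -0.57, beside -0.54 for the factors and -0.09 for all tested genes. That fit keeps a single L3 library, so shares of lower rows were not compared there. The count of lower cytoplasmic rows was 32 without adult library 1 and 34 without adult library 4. By the earlier quasi-likelihood method 4 mitochondrial rows were lower. Whether these shares differ from that of the factors was not tested.

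The rows most like Ef1alpha48D over the 6 libraries, among 4931 others with at least 200 counts, were Smn, CR45895 and Syx8, which shared counts with each other, then Cdk4 and Pdi. Pearson's r of log2(CPM + 1) was 0.9927 for these 3, 0.9916 for Cdk4, a cell cycle kinase, and 0.9909 for Pdi, a protein disulphide isomerase. Smn was at 483 and 358 CPM in L3 and 202, 106, 207 and 172 CPM in adult. Such values describe 6 libraries that also differ in depth and stage, and many rows separate the stages.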

How the data were processed

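The authors deposited whole-number counts per gene symbol for 6 libraries of sorted astrocytes, made per the labels' protocols with a MARS-seq derivative that barcodes, amplifies and sequences transcript 3′ ends. The tools named, per the submitters' processing notes, are HISAT 0.1.5, HOMER and bcl2fastq. Their roles, the build, the annotation, the strand setting and any collapsing of molecular identifiers are not stated in the labels used here. The table had 6 library columns, and each was used. A gene table from RefSeq (assembly Release 6 plus ISO1 MT) lists 7 of the 39 symbols as current and 32 as synonyms, and served only for names. No coordinates or sequences are printed.

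Stage was tested in R 4.3.3 by the quasi-likelihood test of edgeR 4.0.16, after TMM scaling, filterByExpr by stage and 1 coefficient for stage. The SE is the absolute log2 fold change divided by the square root of the F statistic. The other settings were RLE and upper quartile scaling, scaling without factor and ribosomal protein rows, DESeq2 1.42.0, limma-voom (limma 3.58.1), the earlier quasi-likelihood method, no filter, a filter of 20 CPM in at least 2 libraries, thinning to 745129 counts, 1 row per group of neighbours, 1 row per group together with the earlier method, leaving out each library, a replicate block, its 4 libraries without the block, and a threshold of 0.01. The edgeR and limma-voom fits were tested on simulated counts with added changes. The changes called had the simulated direction, most of the smaller changes were not called, and limma-voom called fewer of the larger ones. All smaller changes were increases there and all larger ones decreases, so the simulation cannot tell size from direction. Distant rows were said to share counts where both had at least 200 counts and differed by under 5% of the summed counts. The chi-square over the libraries also had to be under 0.3. Every member is accounted for: by rule, values per library go to called members, the highest row of each group and paralogues reaching 20 CPM. Some further rows are shown in full outside this rule. The members and lists were chosen with earlier results of these data known.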

Additional observations from a re-analysis of the deposited data

Results flagged for a closer look

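In 3 of 36 checks, 1 adult library stood apart from the other adult libraries, where chance alone flags about 1 check in 20. eIF-5A was at 136 CPM in adult library 1 and at 59.2 CPM in the next highest. eIF4E-6 was at 32.6 CPM in adult library 4 and at most 1.10 CPM in the others. eIF2B-beta was at 34.0 CPM in adult library 3 and at most 2.33 CPM in the others.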

How the results depend on the processing

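Across 20 other settings, 620 of 690 values of single factors kept their direction and their side of the threshold, 37 lost a call, 2 gained one and 31 turned direction. Ef1alpha48D and Ef1beta kept their calls in all 20. Scaling by RLE, by upper quartile or without factor and ribosomal protein rows left the count of lower factors at 9, as did both other filters on low counts. With limma-voom the median log2 fold change of all genes was -0.43 in place of -0.14. Except where fewer libraries, fewer rows or a stricter threshold entered by construction, the cause of a change was not tested.

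By the earlier quasi-likelihood method 5 factors were lower, 521 of all genes higher and 558 lower, 3 pathway genes lower and 4 mitochondrial ribosomal protein rows lower. With 1 row per group of neighbours, 6030 rows were tested in place of 9082, of which 540 were higher and 713 lower. Higher and lower were 0 and 4 of 18 pathway genes, 0 and 25 of 45 cytoplasmic and 0 and 5 of 46 mitochondrial ribosomal protein rows. Lk6 and mxt were not among the 18, since the first row of a group without a factor was kept. With both changes, on as many rows, 5 factors were lower, 323 of all genes higher and 292 lower. Pathway genes were then 0 in either direction, with 0 and 13 cytoplasmic and 0 and 2 mitochondrial rows. At a threshold of 0.01, 512 of all genes were higher and 648 lower, with 1 and 3 pathway genes, 0 and 31 cytoplasmic rows and 6 lower mitochondrial rows. DESeq2 called 767 of all genes higher and 681 lower, where the main test called 876 and 1188, and 6 mitochondrial rows lower. By limma-voom 7 mitochondrial rows were lower.

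The labels give same-numbered libraries of the 2 stages no shared source, and the differences between replicates 1 and 2 had a correlation of 0.00815 between the stages, so the numbers were not taken to pair the libraries. With the replicate block on the 4 libraries numbered 1 and 2, 2 factors were lower, 306 of all genes higher and 186 lower, with 1 pathway gene higher and 0 lower, 0 and 5 cytoplasmic rows and 1 lower mitochondrial row. The same 4 libraries without the block gave 7 lower factors, 779 higher and 885 lower genes, 2 higher and 4 lower pathway genes, 0 and 50 cytoplasmic rows and 7 lower mitochondrial rows.

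Leaving out 1 library at a time gave 0 to 1 higher and 6 to 8 lower factors, and 403 to 1020 higher and 509 to 1189 lower genes in all. The ranges were 1 to 3 higher and 2 to 6 lower pathway genes, 0 to 1 and 13 to 62 cytoplasmic rows, and 1 to 2 and 3 to 9 mitochondrial rows. Of the factors that turned direction, eIF-5A alone had a call, at -2.75 to 0.56 on the log2 scale. The others ranged from -0.98 to 4.04 for eIF2B-beta, -1.06 to 0.99 for eIF2B-epsilon, -0.50 to 0.39 for eIF5, -0.30 to 0.06 for eIF-3p66, -0.11 to 1.75 for eIF-4B, -0.04 to 0.21 for eIF-4E, -0.56 to 0.22 for eIF4E-5, -4.86 to 0.16 for eIF4E-6 and -0.57 to 0.67 for eIF4G. By limma-voom eIF2B-beta was at -0.12, eIF5 at -0.20 and eIF-4E at -0.01. With libraries thinned to 1 depth, eIF2B-beta was at -0.40, eIF4E-5 at 0.52 and eIF4G at 0.02. With the block eIF4E-5 was at 0.71 and eIF4G at 0.49, and without it on the same libraries at 0.67 and 0.38. SEs of single factors reached 1.22 on the log2 scale, for eIF2B-beta.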
